A study of Mus musculus with 12 samples.

Results

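A group of 10 genes that mark newborn neurons and granule cells of the dentate gyrus was read across 12 mouse brain arrays. The genes were Mki67, Eomes, Neurod1, Sox11, Sox4, Dcx, Tubb2b, Igfbpl1, Prox1, and Calb1, taken by symbol. They were found through the accession of each probe, which gave 18 probes for the 10 genes, of 20886 genes with a symbol on the array. All 10 passed the filter that removed dim probes and left 19663 genes.

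The study compared mouse models of Alzheimer's disease on one-colour arrays, 1 array per model, each hybridized with equal amounts of RNA from 3 animals. Of the 12 arrays, 4 were of the prefrontal cortex of C57BL/6 mice aged 1.5, 4, 17, or 22 months. Another 3 were of the hippocampus of C57BL/6 mice carrying a transgene, which was mutated human NCSTN at 10 months of age, wild-type human MAPT at 12 months, or the transgenes of the 5xFAD line at 6 months. The last 5 were of the hippocampus of ICR mice bought at 7 weeks of age, and no ICR array was of an untreated mouse. The ICR mice of 2 arrays had received Aβ (5 or 10 μM) and those of 2 arrays streptozotocin (2.5 or 3 mg/kg) by injection into the cerebral ventricle 14 days before, and those of 1 array scopolamine (1 mg/kg) into the peritoneum 30 min before. The promoters that drive the transgenes are not given in the sources used here.

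New neurons are made through adult life in the subgranular zone of the dentate gyrus, a part of the hippocampus, and their number falls with age. Stem cells give rise to dividing intermediate progenitors, these to neuroblasts that extend processes and move, and these to granule cells. Each stage has its own regulators and structural proteins, and a few of them, such as Sox4 and Sox11, are also used by other immature cells of the brain.

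The sets differ in more than age. Xist, an RNA that female cells make from their inactive X, averaged a log2 signal of 9.41 on the 3 C57BL/6 hippocampus arrays and was well above background on none of the other 9. The Y-linked Ddx3y was at 1.85 there, not well above background, against 10.59 in ICR hippocampus and 10.58 in cortex. The methods describe all these mice as male. The arrays of a set are different models and not replicates of one condition, so every p-value here measures a difference against the spread between models. Strain, age, sex signature, transgene, and treatment cannot be told apart between ICR and C57BL/6 hippocampus.

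The sequence before the start of transcription is shown for 3 of the regulators. Prox1 had the smallest adjusted p between hippocampus and cortex, and Sox11 and Sox4, which are related factors, varied together within the sets (Pearson's r of 0.64 over 12 arrays). Other pairs varied more closely, such as Sox11 and Calb1 (0.72). The table of RefSeq promoters (mouse GRCm38.p6) held 9 promoters of 7 of the genes. The 250 bases before the start are given below, 5′ to 3′ on the strand of the gene, and capitals mark the E-box motifs CAGATG and CAGCTG, letters that basic helix-loop-helix factors such as NEUROD1 are known to bind.
Prox1, chr1:190170828-190171077, minus strand: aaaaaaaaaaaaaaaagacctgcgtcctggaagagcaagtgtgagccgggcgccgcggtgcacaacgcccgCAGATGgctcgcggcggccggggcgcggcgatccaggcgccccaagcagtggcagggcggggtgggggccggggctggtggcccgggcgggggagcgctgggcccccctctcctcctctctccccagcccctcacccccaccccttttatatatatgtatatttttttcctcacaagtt
Sox11, chr12:27342719-27342968, minus strand: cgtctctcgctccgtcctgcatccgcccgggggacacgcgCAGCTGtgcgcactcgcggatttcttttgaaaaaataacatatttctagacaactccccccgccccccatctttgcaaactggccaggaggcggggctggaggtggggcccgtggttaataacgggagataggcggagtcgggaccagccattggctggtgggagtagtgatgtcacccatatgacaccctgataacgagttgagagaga
Sox4, chr13:28953700-28953949, minus strand: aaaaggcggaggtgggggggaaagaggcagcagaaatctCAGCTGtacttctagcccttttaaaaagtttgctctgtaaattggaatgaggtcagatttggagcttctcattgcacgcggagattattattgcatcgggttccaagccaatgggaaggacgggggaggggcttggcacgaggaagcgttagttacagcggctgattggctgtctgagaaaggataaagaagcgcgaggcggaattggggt

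These motifs were searched on both strands of a window that also held the 50 bases after the start. CAGATG began at base -179 from the start of the Prox1 promoter shown. It was found in 1 of the 9 promoters (11.1%) and in 17.2% of all 32851. CAGCTG began at -210 from the start of Sox11 and at -211 from that of Sox4, and was found in 22.2% of the 9 and 16.3% of all. The promoters shown were thus the only ones of the 9 with either E-box motif. Another Prox1 promoter, chr1:190169516-190169765, held neither and is not shown. The SOX motifs ACAAAG and ACAATG were in 22.2% and 0% of the 9, and in 18.7% and 12.6% of all. The matches describe the letters of these windows only.

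Between the ICR and the C57BL/6 hippocampus, none of the 10 genes passed the test. With limma over all 12 arrays and Benjamini-Hochberg adjustment, 0 of 10 were called at an adjusted p under 0.05, where 11.8% of all genes were. At an unadjusted p under 0.05 the count was also 0, against 29.6% of all genes, and for all 10 genes the arrays of the 2 sets overlapped, whereas those of 22.6% of all genes did not. The median difference of the 10 genes was -0.02 on the log2 scale, and that of all genes was 0.04. In the values of the deposited matrix 2 genes passed, with Dcx turned to 0.93 higher in ICR and Tubb2b at -0.53. The ICR and 5xFAD columns of that matrix appear to have been normalized apart from the rest, which the methods do not state. The C57BL/6 hippocampus set would then itself be mixed. The other alternative fits of whole genes also called 0 of 10. With each probe fitted alone, 1 probe of Neurod1 and 1 of Dcx passed, but no gene passed with all its probes. In whole tissue, fewer cells of a type and less RNA per cell cannot be told apart.

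**Figure D1:**
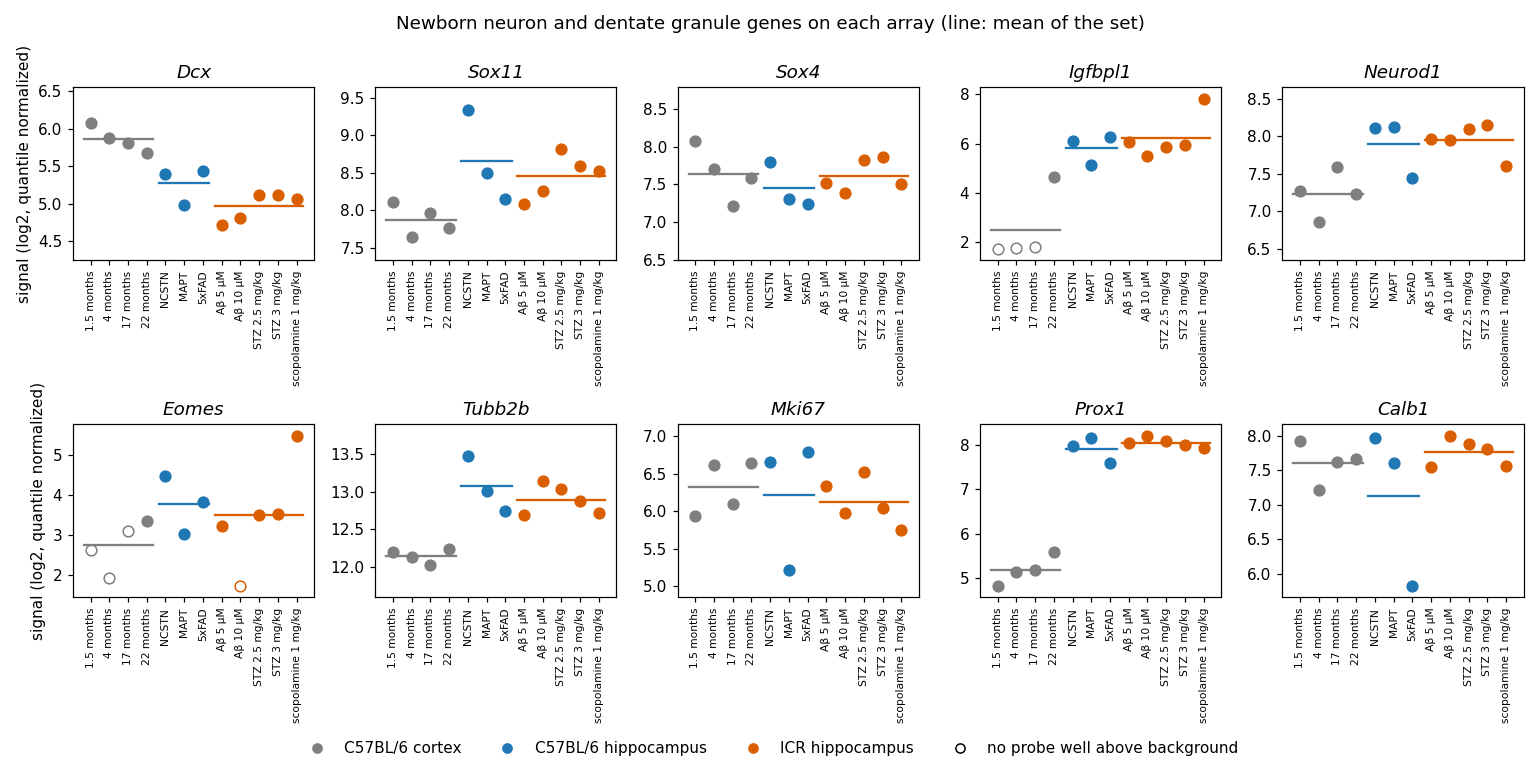
Log2 signal, quantile normalized over the 12 arrays, of each of the 10 genes (1 panel each, with its own axis) on each array, with a line at the mean of each set; open points had no probe well above background, and STZ is streptozotocin. Prox1 lies between 4.82 and 5.59 in cortex and between 7.60 and 8.21 in hippocampus, Calb1 is lowest on the 5xFAD array (5.83), and Igfbpl1 is highest on the scopolamine array (7.83).

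Dividing cells and intermediate progenitors are marked by Mki67, the Ki-67 protein of cycling nuclei, and by Eomes, the T-box factor TBR2. The log2 signal of Mki67 was 6.65 with NCSTN, 5.22 with MAPT, and 6.79 with 5xFAD, and in ICR hippocampus it ran from 5.75 with scopolamine to 6.52 with 2.5 mg/kg streptozotocin. The NCSTN and 5xFAD arrays lay above all 5 ICR arrays and the MAPT array below them, the lowest of all 12. The difference of ICR minus C57BL/6 hippocampus was -0.10 (SE 0.34, 95% interval -0.85 to 0.65, limma adjusted p = 0.874).

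Eomes was close to the limit of detection. It was not well above background at 1.5, 4, and 17 months in cortex or with 10 μM Aβ, and 1 of its 2 probes was well above background only on the NCSTN, 5xFAD, and scopolamine arrays. In C57BL/6 hippocampus its log2 signal was 4.47 with NCSTN, 3.03 with MAPT, and 3.81 with 5xFAD. In ICR hippocampus it was 1.73 with 10 μM Aβ, 3.21 with 5 μM Aβ, 3.49 and 3.52 with streptozotocin, and 5.47 with scopolamine. The ICR arrays thus enclosed all the C57BL/6 arrays, and the difference of -0.28 had an interval of -1.79 to 1.22 (SE 0.68, adjusted p = 0.815).

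Neurod1, Sox11, and Sox4 encode transcription factors of neuronal commitment and early maturation. Neurod1 was 8.11 with NCSTN, 8.13 with MAPT, and 7.44 with 5xFAD, and in ICR hippocampus 7.96 and 7.95 with 5 and 10 μM Aβ, 8.10 and 8.15 with 2.5 and 3 mg/kg streptozotocin, and 7.60 with scopolamine. The sets overlapped and differed by 0.06 (SE 0.20, interval -0.39 to 0.50, adjusted p = 0.875). The mean was over 2 probes that went opposite ways. Fitted alone, with adjustment over all probes, A_52_P408391 was 0.62 higher in ICR (SE 0.16, adjusted p = 0.028), with 7.58 to 8.16 on the ICR arrays against 7.17 to 7.55 on the C57BL/6 arrays. The other probe, A_55_P2004972, was -0.51 (SE 0.29, adjusted p = 0.271), with 7.62 to 8.14 against 7.71 to 8.98. Both probes were well above background on all 12 arrays, and the sources used here do not show which part of the transcript each one reads.

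Sox11 was 9.34 with NCSTN, the highest of all 12 arrays, 8.50 with MAPT, and 8.15 with 5xFAD, and ran from 8.09 with 5 μM Aβ to 8.82 with 2.5 mg/kg streptozotocin in ICR hippocampus. All ICR arrays but that of 5 μM Aβ lay within the C57BL/6 span, and the difference was -0.20 (SE 0.25, interval -0.76 to 0.35, adjusted p = 0.624). Sox4 was 7.24 to 7.80 in C57BL/6 and 7.38 to 7.87 in ICR hippocampus, a difference of 0.17 (SE 0.20, interval -0.28 to 0.61, adjusted p = 0.619). Its probes gave -0.14 and 0.47, neither past the threshold.

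Dcx, which encodes the microtubule-binding protein doublecortin of migrating neuroblasts, Tubb2b, a β-tubulin of young neurons, and Igfbpl1, an insulin-like growth factor binding protein-like gene expressed in neuroblasts, describe the next stage. Dcx was 5.40 with NCSTN, 4.98 with MAPT, and 5.43 with 5xFAD, and 4.72, 4.81, 5.12, 5.11, and 5.06 with 5 μM Aβ, 10 μM Aβ, 2.5 mg/kg streptozotocin, 3 mg/kg streptozotocin, and scopolamine. The ICR arrays were lower on average, by 0.30 (SE 0.14, interval -0.62 to 0.01, adjusted p = 0.183), but the MAPT array lay among them. Of the 3 Dcx probes, A_52_P506493 was well above background on none of the 12 arrays, and it differed by -0.84 (SE 0.24, limma adjusted p = 0.0439). Under the 2 stricter filters, which leave that probe out, the Dcx difference was smaller. It was -0.17 with the flag of the scanner software (adjusted p = 0.534) and -0.0 with the 2-fold filter (adjusted p = 0.989). The brightest, A_52_P244349, differed by -0.28 (SE 0.15, adjusted p = 0.253) and A_55_P2080126 by 0.21 (SE 0.22, adjusted p = 0.556). On the brightest probe the NCSTN (8.17) and MAPT (8.28) arrays both lay within the ICR range of 7.92 to 8.33.

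Tubb2b was 13.47, 13.01, and 12.74 with NCSTN, MAPT, and 5xFAD and 12.69 to 13.14 in ICR hippocampus, a difference of -0.19 (SE 0.16, interval -0.54 to 0.17, adjusted p = 0.47). Igfbpl1 was 6.11, 5.12, and 6.25 with NCSTN, MAPT, and 5xFAD, and in ICR hippocampus 5.48 to 6.08 with Aβ and streptozotocin but 7.83 with scopolamine. Its difference of 0.41 had an interval of -1.18 to 2.0 (SE 0.72, adjusted p = 0.741). Without the scopolamine array the difference was 0.01.

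Prox1, the homeobox factor that sets and keeps granule cell identity, and Calb1, the calcium buffer calbindin of mature granule cells, mark the end of the path. Prox1 was 7.97 with NCSTN, 8.15 with MAPT, and 7.60 with 5xFAD, and 7.93 to 8.21 in ICR hippocampus. All ICR arrays but that of 10 μM Aβ lay within the C57BL/6 span, and the difference was 0.14 (SE 0.17, interval -0.23 to 0.52, adjusted p = 0.604). Calb1 had the largest mean difference of the 10 genes, 0.63 higher in ICR (SE 0.39, interval -0.23 to 1.50, adjusted p = 0.309). It was 7.96 with NCSTN, 7.60 with MAPT, and 5.83 with 5xFAD, and 7.55, 8.0, 7.88, 7.81, and 7.56 on the ICR arrays in the order given for Dcx. Without the 5xFAD array the difference was -0.02, so 1 array set it.

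**Figure D2:**
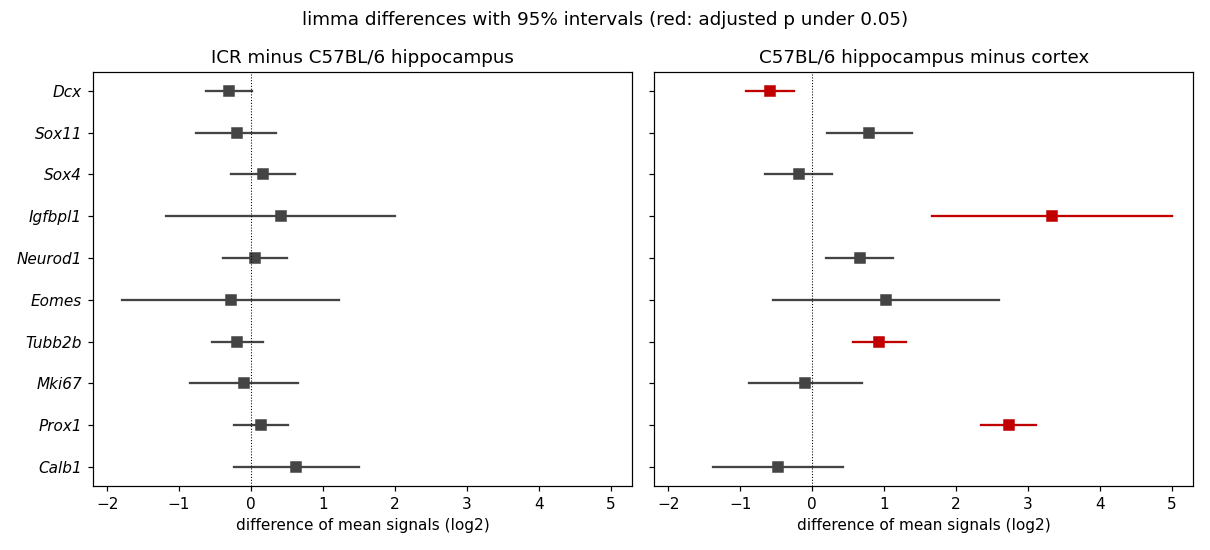
Differences of mean log2 signal for the 10 genes between ICR and C57BL/6 hippocampus (left) and between C57BL/6 hippocampus and cortex (right), with 95% intervals from limma; red marks an adjusted p under 0.05. All 10 intervals on the left include 0. In red on the right, Igfbpl1 (3.33), Tubb2b (0.93), and Prox1 (2.73) lie above 0 and Dcx (-0.59) below. The intervals of Sox11 (0.21 to 1.38) and Neurod1 (0.19 to 1.12) on the right also lie above 0 but are not red.

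**Figure D3:**
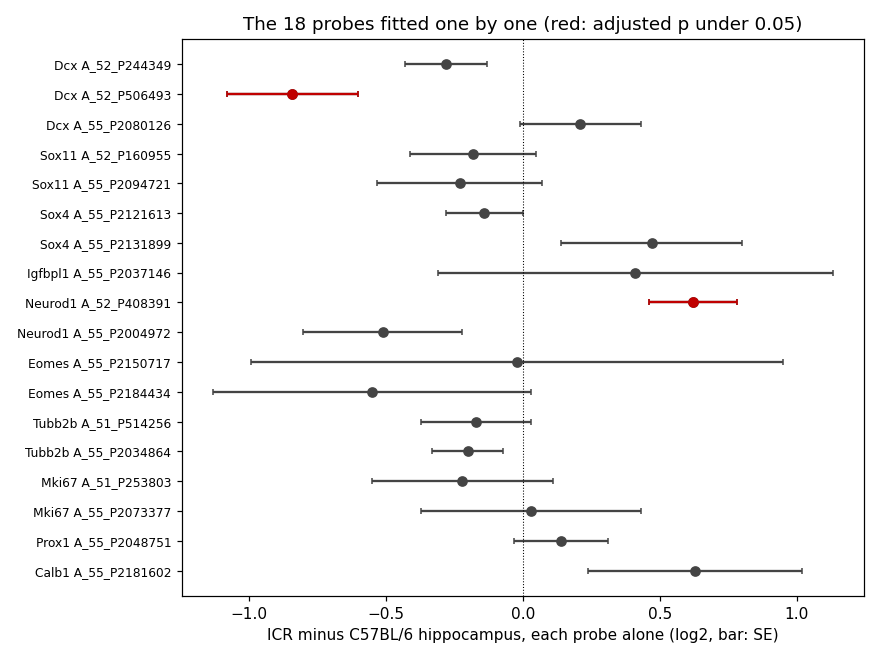
Differences of ICR minus C57BL/6 hippocampus (log2, with SE) for the 18 probes, each fitted alone; red marks an adjusted p under 0.05. The Neurod1 probes lie at 0.62 and -0.51, and the other probe in red is the Dcx probe that was well above background on none of the 12 arrays.

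The other genes of the pathway were read from lists of known markers. Over all genes, 6.59% were higher and 5.21% lower in ICR than in C57BL/6 hippocampus. Of 23 other genes of immature neurons, 2 were higher and 1 lower (median difference 0.07). Dpysl3, a collapsin response mediator of growing axons, was 0.54 higher (SE 0.13, adjusted p = 0.0276), and Calb2, the calretinin of immature granule cells, differed by 0.54 (SE 0.26, adjusted p = 0.187). Marcksl1 and Tac2, named by the same rule, differed by 0.76 and 0.60 (adjusted p = 0.0621 and 0.355). St8sia4 (0.41, adjusted p = 0.0199) and Stmn1 (-0.49, adjusted p = 0.0149), named because they passed, were the other calls. Of 24 cell division genes, 1 was higher and 2 lower (median -0.02). The first was Bub1 (0.35, adjusted p = 0.0469), also named because it passed, and the others were Mcm5, a subunit of the replication helicase (-0.72, adjusted p = 0.0265), and Tyms, thymidylate synthase (-0.58, adjusted p = 0.00859). Ube2c and Plk1 were at -0.72 and -0.56 (adjusted p = 0.0759 and 0.0633). Of 14 genes of stem cells and radial glia, 1 was higher, Prom1, the stem cell antigen prominin (0.73, adjusted p = 0.0106), and 1 lower, the receptor Notch1 (-0.72, adjusted p = 0.0117). Lpar1 and Vim were at 0.77 and -0.56 (adjusted p = 0.0538 and 0.389).

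Of 16 other dentate granule genes, 1 was higher and 1 lower, and their median difference was 0.35. C1ql2, a secreted synapse organizer made by granule cells, was 7.90 to 8.33 in ICR and 9.24 to 9.64 in C57BL/6 hippocampus, 2.56-fold lower in ICR (-1.36, SE 0.13, adjusted p = 0.000163). Npnt went the other way, 5.63 to 6.33 against 4.86 to 5.17 (0.94, SE 0.14, adjusted p = 0.00301). Maml2 and Dsp, at 1.03 and 0.85, did not pass (adjusted p = 0.0807 and 0.16). The arrays of the 2 sets did not overlap for C1ql2, Npnt, and Maml2, and overlapped for Dsp, Prox1, and Calb1. Over all genes, 22.6% did not overlap. Of 8 genes of subventricular zone neuroblasts, the newborn neurons of the lateral ventricle wall, limma called 0 (1 higher and 0 lower at an unadjusted p under 0.05, median 0.19), and Dlx6, Dlx2, and Dlx5 were at 0.48, 0.36, and 0.31 and Meis2 at -0.40. Of 12 genes of pyramidal cells of the hippocampus, 1 was higher (Bok, 0.49, adjusted p = 0.028) and 1 lower (the postsynaptic scaffold gene Homer3, -1.02, adjusted p = 0.000326). Spink8 was at 0.51, and Amigo2 at 1.92 (adjusted p = 0.452), where its signal was 15.87 on 1 ICR array and the lowest ICR value was 7.47. Among 13 mature neuron genes, limma called 2 higher and 2 lower, and among 9 interneuron genes 0 and 1 (Npy, -0.66, adjusted p = 0.0152). In 12 oligodendrocyte precursor genes these were 1 (C1ql1, 0.88, adjusted p = 0.00284) and 0, and in 8 thalamus genes 1 (Tnnt1, 1.91, adjusted p = 0.00201) and 0. They were 0 and 1 (Rgs9, -0.89, adjusted p = 0.0338) in 7 striatum genes, and 0 and 0 in 10 choroid plexus genes. The part of these lists in the ICR differences was not tested.

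Between C57BL/6 hippocampus and cortex, 3 of the 10 genes were higher in hippocampus (Prox1, Igfbpl1, and Tubb2b) and 1 was lower (Dcx), where 7.41% and 9.11% of all genes were, or 16.5% in all. This comparison checks the tissue labels, and the transgenes, ages, and sex signature differ along with the region. The arrays of the 2 sets did not overlap for 5 of the 10 genes, against 31.6% of all genes. The 10 genes had a median difference of 0.73, and all genes had one of -0.04.

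Prox1 lies on chromosome 1 (GRCm38.p6, 190118035 to 190170827) and is read by a single probe. Its log2 signal was 4.82, 5.14, 5.18, and 5.59 in cortex at 1.5, 4, 17, and 22 months. All 8 hippocampus arrays lay above these 4, and C57BL/6 hippocampus was 6.62-fold higher than cortex (2.73, SE 0.18, adjusted p = 6.37e-06). With normexp background correction the Prox1 difference was 1.43 (adjusted p = 5.83e-06). This correction added an offset of 50 to the signals, which by itself makes log2 differences of dim probes smaller. Tubb2b was 12.02 to 12.23 in cortex, below all 8 hippocampus arrays, and 1.9-fold lower there than in C57BL/6 hippocampus (0.93, SE 0.17, adjusted p = 0.00393), with both probes higher. Igfbpl1 was well above background on all 8 hippocampus arrays but on only 1 of the 4 cortex arrays, and its difference of 3.33 (SE 0.75, adjusted p = 0.0131) is therefore uncertain in size. With the 3 dim arrays set to the lowest signal that was well above background there, it was at least 2.87-fold (1.52). It was 0.78 with normexp background correction (adjusted p = 0.077), and without the 5xFAD array the adjusted p was 0.0502. For 8% of all genes the 8 hippocampus arrays lay above the 4 cortex arrays, and for 9.22% below.

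Dcx went the other way. Its log2 signal was 5.67 to 6.08 in cortex, above all 8 hippocampus arrays, and C57BL/6 hippocampus was 1.51-fold lower (-0.59, SE 0.15, adjusted p = 0.0222). The brightest probe was 8.83 to 9.13 in cortex, 8.17 to 8.78 in C57BL/6 hippocampus, and 7.92 to 8.33 in ICR hippocampus. Fitted alone with limma, it did not pass (-0.54, adjusted p = 0.0518), nor did A_55_P2080126 (-0.33, adjusted p = 0.364). Only A_52_P506493, which was well above background on no array, passed (-0.9, adjusted p = 0.0386). The call is fragile. It was lost in 7 of 20 alternative settings, among them the filter that leaves out the probe not well above background (-0.38, adjusted p = 0.15), scaling to the 75th percentile (-0.37, adjusted p = 0.139), and the fits without the 1.5-month (adjusted p = 0.0545), 4-month (0.0502), or MAPT array (0.074), while the direction stayed the same in all 20.

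The remaining 6 genes did not pass. Sox11 was 0.79 higher in C57BL/6 hippocampus than in cortex (SE 0.26, adjusted p = 0.0638) and Neurod1 0.66 higher (SE 0.21, adjusted p = 0.0565). Of 20 alternatives, Sox11 passed in 5 and Neurod1 in 6. Both passed with 75th percentile scaling (adjusted p = 0.0326 and 0.021), with either stricter filter, and without the 5xFAD array (1.05, adjusted p = 0.0276, and 0.88, adjusted p = 0.017). Eomes was at 1.02 (SE 0.71, adjusted p = 0.351), against cortex arrays of which 3 of 4 were at background, and 1 of its 2 probes gave no fold at the lowest signal well above background. Sox4 was at -0.19 (SE 0.21, adjusted p = 0.565), Mki67 at -0.10 (SE 0.36, adjusted p = 0.883), and Calb1 at -0.47 (SE 0.41, adjusted p = 0.456). Calb1 turned to 0.18 without the 5xFAD array. It is also made by neurons of the upper cortical layers, and its cortex arrays, at 7.21 to 7.92, lay around the MAPT value and just below that of NCSTN.

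Among the other dentate granule genes, 6 of 16 were higher and 1 was lower in C57BL/6 hippocampus than in cortex (median 0.77). Dsp, which encodes desmoplakin and is enriched in granule cells, was 3.19 higher (SE 0.39, adjusted p = 0.000416), C1ql2 1.53 higher (adjusted p = 5.93e-05), and Npnt was lower by 0.82 (adjusted p = 0.00434). The pyramidal cell genes were alike in this, with 5 of 12 higher and 1 lower (median 0.75). Markers of mature neurons (0 of 13 higher and 3 lower, median -0.22), interneurons (0 of 9 and 3, median -0.26), and striatum (0 of 7 and 3, median -1.03) went the way of Dcx, and 0 of each were higher at an unadjusted p under 0.05 in limma. Of the other immature neuron genes, 8 of 23 were higher and 3 lower (median 0.13), and of the 24 cell division genes Mcm6 was higher (1.39, adjusted p = 0.000947) and Mcm5 lower (-0.74, adjusted p = 0.0214), with a median of -0.07. Of the stem cell genes 0 of 14 were higher (limma, 4 at an unadjusted p under 0.05) and 1 was lower, Prom1 (-0.59, adjusted p = 0.0224). Choroid plexus genes, which mark the secretory tissue of the ventricles, were higher for 5 of 10 and lower for 0 (median 4.23), and for 8 and 0 at an unadjusted p under 0.05. The mean level of these 10 genes was 4.44 to 7.97 in cortex, 9.97 to 10.51 in C57BL/6 hippocampus, and 6.30 to 11.48 in ICR hippocampus, and all 10 were well above background on at least 1 array. Oligodendrocyte precursor genes were higher for 2 of 12 and lower for 0 (median 0.25), and thalamus genes for 1 of 8 and 0 (median 0.15). The share of all genes at an unadjusted p under 0.05 is not given for hippocampus against cortex. The counts at that threshold therefore have no background to be read against. The part of these and the other cell types in the differences of Prox1, Igfbpl1, Tubb2b, and Dcx was not tested.

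Along the 4 cortex ages each value is 1 array, so no test was run. The prefrontal cortex does not hold the dentate gyrus, so these values do not describe the newborn neurons of that region. Between 22 and 1.5 months, 1 of the 10 genes differed at least 2-fold, Igfbpl1, where 6.3% of all genes did. Igfbpl1 was 1.74, 1.76, and 1.81 at 1.5, 4, and 17 months, never well above background, and 4.66 at 22 months, where it was. Against the lowest signal well above background on the 1.5-month array, it was at least 1.37-fold higher at 22 months, so its 2-fold call rests on a value at background. The mean of 10 choroid plexus genes was highest at 17 months (7.97) and was 5.24 at 22 months, against 4.44 and 4.61 at the younger ages. Its part in the Igfbpl1 values was not tested.

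Dcx was 6.08, 5.88, 5.81, and 5.67 from 1.5 to 22 months, lower at each step, as were 3.03% of all genes. Over the whole span the difference was -0.40, a 1.32-fold lower signal. Its brightest probe was also lower at each step, from 9.13 to 8.83, while the other 2 probes were not. Prox1 was higher at each step, by 0.77 over the span (1.71-fold), and so were 3.74% of all genes. Its single probe was dim in cortex, though well above background at each age. It stood 3.12, 3.35, 3.02, and 3.33-fold over local background from 1.5 to 22 months, with no order by age. The Igfbpl1 values also ascend, but the first 3 are at background and have no order. The Mki67 signal was 5.94, 6.61, 6.09, and 6.64, with no order by age. Sox11 (-0.35), Sox4 (-0.49), Neurod1 (-0.04), Tubb2b (0.03), and Calb1 (-0.25) were also mixed along the ages. Eomes was well above background at 22 months only (3.34).

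**Figure D4:**
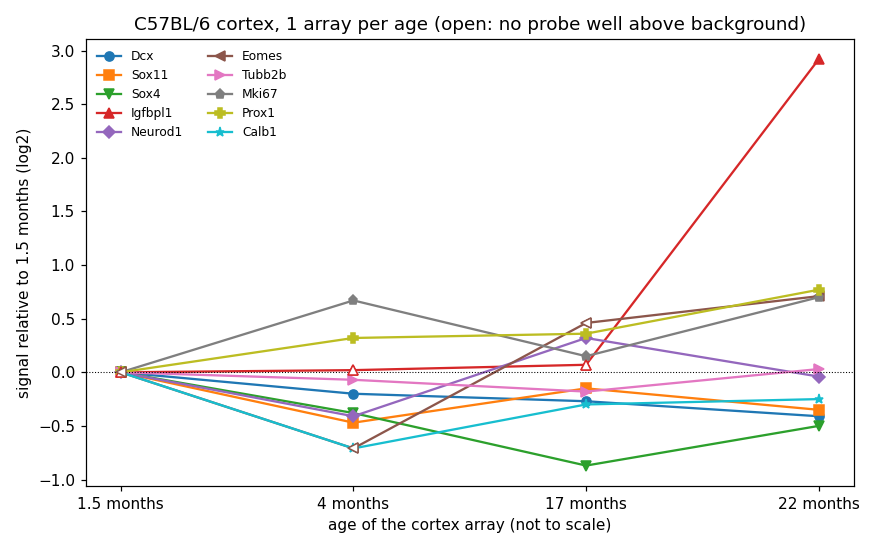
Log2 signal of the 10 genes in C57BL/6 cortex at 1.5, 4, 17, and 22 months, relative to 1.5 months, 1 array per age with no error; open points had no probe well above background. Igfbpl1 stands at 2.92 at 22 months, Prox1 at 0.77, and Dcx at -0.40.

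Within each set, the values of every array were compared with the average of the rest, with no test. Such ratios are bound to each other, since a gene high on 1 array makes the others low. Of 120 pairs of gene and array, 13 were at least 2-fold from the others. Of all genes, 4.41%, 3.47%, 4.18%, and 3.54% were that far on the cortex arrays in order of age, 5.47% with 5 μM Aβ, 7.33% with 2.5 mg/kg streptozotocin, and 5.01% with 3 mg/kg streptozotocin. Of the 13 pairs, 5 were of Eomes and 4 of Igfbpl1, the only 2 of the 10 genes that were not well above background on every array. The rest were Calb1 with NCSTN and 5xFAD, Mki67 with MAPT, and Sox11 with NCSTN. The SD within sets was 1.08 for Igfbpl1, 1.02 for Eomes, 0.58 for Calb1, and 0.50 for Mki67, and between 0.20 and 0.37 for the other 6 genes, where the median of all genes was 0.24.

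**Figure D5:**
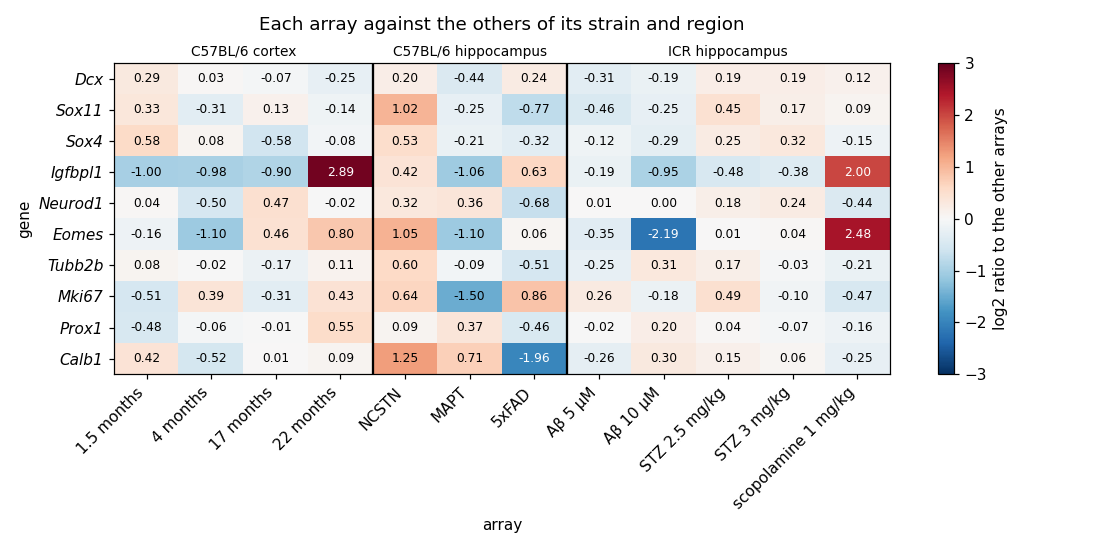
Log2 ratio of each of the 10 genes on each array to the mean of the rest of its set (same strain and region), with vertical lines between the sets; STZ is streptozotocin. Igfbpl1 with scopolamine (2.0) stands out upward and Calb1 with 5xFAD (-1.96) downward. Igfbpl1 at 22 months (2.89) and Eomes with scopolamine (2.48) and with 10 μM Aβ (-2.19) rest at least in part on signals at background.

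On the 5xFAD array Calb1 was -1.96, a 3.88-fold lower signal than the mean of the NCSTN and MAPT arrays, where 10.7% of all genes differed at least 2-fold. In the means over probes, Sox11 (-0.77), Neurod1 (-0.68), Tubb2b (-0.51), Prox1 (-0.46), and Sox4 (-0.32) were also below both other arrays. Mki67 (0.86), Igfbpl1 (0.63), and Dcx (0.24) were above both. Single probes did not all follow. Sox11 probe A_52_P160955 was 8.29 with 5xFAD and 8.15 with MAPT, and Tubb2b probe A_55_P2034864 was 14.15 on both. The other probe of each, and both probes of Neurod1 and of Sox4, were below both other arrays. With 5xFAD, Mki67 probe A_55_P2073377 (6.35) and Dcx probe A_52_P506493 (2.56, not well above background) were below their NCSTN values. Calb1 is on chromosome 4 (GRCm38.p6, 15881264 to 15906709) and has a single probe, well above background on all 12 arrays. The other dentate granule genes had a median of -0.13 on this array, with 2 of 16 at least 2-fold higher and 1 lower. These 3 were Glis3 (1.05), Plk5 (1.28), and Rfx3 (-1.01), chosen after their values were seen. Other lists were lower on this array, with medians of -0.49 for the 9 interneuron genes and -0.68 for the 8 subventricular zone genes (2 of 8 at least 2-fold lower), and 3 of 14 stem cell genes were at least 2-fold lower. Calb1 is also made by some interneurons, and the part of these lists in its value was not tested.

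The NCSTN array had 3 of the 10 genes at 2-fold or more over the other 2 arrays, Calb1 (1.25), Eomes (1.05), and Sox11 (1.02), where 4.79% of all genes differed in either direction. The NCSTN array was above the mean of the others for all 10 genes, with Prox1 (0.09) the nearest to it, and for 54.8% of all genes. The medians of the subventricular zone (0.26), interneuron (0.29), stem cell (0.17), cell division (0.16), and other immature neuron lists (0.15) were also above 0 there, and that of the other dentate granule genes was -0.09. The 5xFAD array is 1 of the 2 arrays it was set against.

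On the MAPT array Mki67 was -1.50, Eomes -1.10, and Igfbpl1 -1.06, where 4.82% of all genes differed at least 2-fold. Of the 24 cell division genes, 4 were at least 2-fold lower there and none higher. They were Tk1 (-2.01), Top2a (-1.15), Nusap1 (-1.06), and Prc1 (-1.03), chosen after their values were seen. Tk1 and Top2a were not well above background on the MAPT array, while Mki67, Nusap1, and Prc1 were.

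Among the ICR arrays, scopolamine had Eomes at 2.48 and Igfbpl1 at 2.0 above the mean of the other 4, where 5.15% of all genes differed at least 2-fold. The Eomes value is set partly against signals at background. These were both probes with 10 μM Aβ and the dimmer probe on all 4 other arrays. With those at the lowest signal well above background, the brighter Eomes probe was at least 3.35-fold higher, and the dimmer probe gave no fold. The Eomes ratio was 0.92 with the deposited matrix and 0.61 with normexp, both under 2-fold, and that of Igfbpl1 was 1.24 with either. The other 8 genes lay between -0.47 and 0.12 on that array. None of the 8 subventricular zone genes was at least 2-fold higher with scopolamine, and the nearest, picked after seeing their values, were Sp9 (0.94) and Sp8 (0.80). The mean of the choroid plexus genes was 11.21 with scopolamine, 11.07 and 11.48 with Aβ, and 6.30 and 6.73 with streptozotocin. Its part in the Igfbpl1 and Eomes values was not tested. With the 2 doses of Aβ and of streptozotocin, Eomes with 10 μM Aβ (-2.19, not well above background) was the only one of the 10 genes at least 2-fold from the others, where 5.78% of all genes were at that dose. Against the lowest signal well above background there, the brighter Eomes probe was at least 1.75-fold higher on the other 4 arrays.

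Over the 12 arrays, with each set centred on its mean, the genes that varied most closely together were Tubb2b and Calb1 (Pearson's r of 0.79), Neurod1 and Calb1 (0.75), Sox11 and Calb1 (0.72), and Igfbpl1 and Eomes (0.71). Without the 5xFAD array these were 0.71, 0.54, 0.61, and 0.72 over 11 arrays. Dcx and Sox11, at 0.49, and Dcx and Sox4, at 0.58, were the closest pairs without that array, at 0.88 and 0.76, so the order of the pairs depends on it. Dcx and Prox1 ran opposite, at -0.72, and -0.68 without 5xFAD. Igfbpl1 and Eomes were each at background on some arrays, and within their sets both were highest at 22 months and with scopolamine. Their r without those arrays is not given. All pairs share the same 12 arrays and their brightness, so the values are descriptions. Among 14025 genes well above background on all arrays, those closest to Dcx were Evl (0.94), Fbxo28 (0.92), Zfp40 (0.91), Slc7a6 (0.91), and Rnf170 (0.90). Those closest to Calb1 were Myh7b (0.97), Dnajc5 (0.97), Ergic1 (0.96), Vgf (0.96), and Rap1gap2 (0.96), which without the 5xFAD array were between 0.73 and 0.85.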

How the data were processed

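Gene expression was read on 12 one-colour arrays, each of RNA pooled by the authors from 3 animals. The deposited files hold green-channel signal intensity per spot, already background subtracted by the scanner software. Outlier spots were dropped, spots of a probe were averaged, and, following the methods, probes at least 1.4-fold over local background on all 12 arrays were kept (36572 of 39429) and quantile normalized. Log2 values of the probes of a gene were averaged. Gene symbols came from RefSeq through probe accessions (69.8% of probes). Sets were compared with limma 3.58.1 (R 4.3.3, data.table version 1.17.8), with 1 estimate of the spread over 12 arrays and Benjamini-Hochberg adjustment over 19663 genes, and called at an adjusted p under 0.05. Single arrays were compared by a 2-fold rule without a test. The scripts were tested on simulated data. Python 3.11.15, numpy 2.4.6, pandas 2.3.3, and matplotlib 3.10.9 were used.

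The 10 genes and the lists of other markers were chosen with earlier results of these data known. Of each list, up to 4 genes were chosen by size of ICR difference among those well above background on all 8 hippocampus arrays. Those of the mature neuron, interneuron, oligodendrocyte precursor, thalamus, striatum, and choroid plexus lists are printed only in part or not at all. Another 5 genes each were named by correlation with Dcx and Calb1. Alternatives changed the scaling, background correction, filter, probe rule, fit, and threshold, left out arrays, or used the deposited matrix of normalized intensity. The ICR and 5xFAD columns of that matrix appear to have been normalized apart from the rest, which the methods do not state. The label names Cy5, whereas the files hold only green columns.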

Additional observations from a re-analysis of the deposited data

Results flagged for a closer look

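In 2 of 20 groups of 4 or 5 arrays (each gene in the cortex and in the ICR set) the highest or lowest array stood far from the others relative to the range of the group, where chance alone gives about 1 in 20. Both were of Igfbpl1. In C57BL/6 cortex its log2 signal was 4.66 at 22 months against 1.74, 1.76, and 1.81 on the other 3 arrays, which were not well above background. In ICR hippocampus it was 7.83 with scopolamine against 5.48 to 6.08 on the other 4 arrays, all well above background.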

How the results depend on the processing

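Of the 10 genes, 0 passed between ICR and C57BL/6 hippocampus under every alternative fit of whole genes but the deposited matrix, where 2 did (Dcx 0.93, adjusted p = 0.00126, and Tubb2b -0.53, adjusted p = 0.0321). In the probe-by-probe fit a gene counted only when all its probes passed in 1 direction, which also gave 0, while 1 probe of Neurod1 (adjusted p = 0.028) and 1 of Dcx (adjusted p = 0.0439) passed. Over all genes 2321 passed, against 4158 with 75th percentile scaling, 7374 with the deposited matrix, 673 at an adjusted p under 0.01, and 1063 to 3046 with 1 array left out, the low counts being without MAPT (1063), 10 μM Aβ (1433), or 3 mg/kg streptozotocin (1501) and the high one without 5xFAD (3046). Of those calls 55.8% were higher in ICR, 66.5% with 75th percentile scaling, and 51.6% with the deposited matrix. Between hippocampus and cortex 4 of the 10 genes passed, and 2 at an adjusted p under 0.01. The single differences between ICR and C57BL/6 hippocampus kept their direction and side of the threshold in 198 of 216 cases, and those between hippocampus and cortex in 170 of 196.

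Directions turned for ICR minus C57BL/6 hippocampus as follows. With the deposited matrix Dcx was at 0.93, Eomes at 1.09, Mki67 at 0.22, Neurod1 at -0.05, and Prox1 at -0.07. Neurod1 was at -0.04 with 75th percentile scaling, and with the brightest probe Neurod1 was at -0.51 and Sox4 at -0.14. Without NCSTN, Eomes was at 0.06, Mki67 at 0.11, Sox11 at 0.13, and Tubb2b at 0.01, and without 10 μM Aβ Eomes was at 0.15. Without 5xFAD, Neurod1 was at -0.17, Mki67 at 0.19, Prox1 at -0.01, and Calb1 at -0.02. For hippocampus minus cortex, Mki67 turned to 0.15 with 75th percentile scaling, 0.02 with normexp, 0.09 with the brightest probe, 0.01 without 22 months, and 0.40 without MAPT, and Calb1 to 0.18 without 5xFAD. With 1 array left out, the differences of these genes between ICR and C57BL/6 hippocampus otherwise reached -0.46 for Sox11 and -0.35 for Tubb2b (without 5xFAD), -0.78 for Eomes (without scopolamine), -0.60 for Mki67 and 0.27 for Prox1 (without MAPT), and 1.05 for Calb1 (without NCSTN), and those between hippocampus and cortex -0.39 for Mki67 (without 5xFAD) and -0.89 for Calb1 (without NCSTN). The cause was not tested.

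In cortex, 1 of the 10 genes was at least 2-fold apart at 22 and 1.5 months. The count was 2 with the deposited matrix or the brightest probe, 0 with normexp, the 2-fold filter, or the filter by the scanner software, and 4 at 1.5-fold. Over all genes it was 1239, against 93 with normexp, 442 with the 2-fold filter, 212 with the scanner software's filter, 2708 at 1.5-fold, 505 at 3-fold, and 689 for the mean of the 2 older against the 2 younger arrays. Of the 120 pairs of gene and array, 13 were at least 2-fold from the rest of the set, against 2 with normexp, 4 with either stricter filter, 24 at 1.5-fold, 5 at 3-fold, and 10 to 15 with 1 array left out.

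Igfbpl1 and Eomes have no value under the 2 stricter filters. The probe-by-probe fit and the normalization within 8 hippocampus arrays were chosen after seeing the data. Slide and scan as a block were not run, since the files used here give neither, and normexp used median in place of mean spot signals, which are not used here. The number of arrays, 1 per model, and the dimness of Eomes and Igfbpl1 limit the precision. No paired analysis was possible because each model has 1 array and no replicate number is shared between sets in the labels.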
